A study of Mus musculus with 2 samples.

Results

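Glycan branching and capping enzymes were examined in TCRαβ+CD8αα+ intraepithelial lymphocytes (IELs), T cells that lie among the epithelial cells of the small intestine. The members were all genes on the array with symbols of the sialyltransferase (*St3gal*, *St6gal*, *St6galnac*, *St8sia*), fucosyltransferase (*Fut*), *Mgat*, *Gcnt*, *Galnt*, *B3gnt*, *B4galt* and *B3galt* families. The rule uses gene symbols and no measured value, though the families were chosen with earlier results of these data known. It gave 81 genes, measured by 106 of 27509 named probes, of 20887 named genes in all. By role they comprised 19 sialyltransferases, 9 fucosyltransferases including the pseudogene *Fut4-ps1*, 11 *Mgat* genes of N-glycan branching, 5 *Gcnt* genes of O-glycan and I branching, 17 *Galnt* genes of O-glycan initiation and 20 genes of chain extension.

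Cells were sorted from Rbpjf/f mice (Control) and CD4-Cre Rbpjf/f mice (RFF4), both C57BL/6, of both sexes and aged 8 to 12 weeks. CD4-Cre expresses Cre recombinase in T-lineage cells, where it deletes floxed *Rbpj*, the DNA-binding factor of Notch signaling. The labels name no Cre for the Control mice, whereas the study's text describes control Rbpj+/+ mice that carry CD4-Cre. RNA of each genotype was pooled over several isolations, 150 ng was labelled, and each pool was hybridized to 1 Agilent array of 1 color on the same slide. With 1 array per genotype there is no replicate, so no test across samples, p-value or replicate error is given for any value.

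Glycosyltransferases of the Golgi build the sugar chains of cell-surface proteins and lipids one sugar at a time. *Galnt* enzymes start mucin-type O-glycans, *Mgat* and *Gcnt* enzymes open branches on N-glycans, O-glycans and lactosamine chains, and *B3gnt*, *B4galt* and *B3galt* enzymes lengthen the chains. Sialic acid and fucose cap them. In lymphocytes these structures form ligands for selectins, galectins and sialic acid-binding receptors, and in gut epithelium they clothe the mucins.

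Levels are log2 spot signals relative to the 75th percentile of the array, and each difference is RFF4 minus Control on that log2 scale. Gene spots marked well above background made up 57.2% of gene spots on the Control array and 49.7% on the other array. Among these marked spots, signals on the Control array stood higher over background, at a median of 9.47-fold against 5.78-fold. The SD of a difference between arrays from repeated spots was 0.14 over 237 probes, rising to 0.21 for probes with a mean level below 0 and 0.30 below -2. It covers technical error only. Neither *Rbpj* probe was lower on the array labelled RFF4. One gave 1.96 on the Control array and 2.28 on the other, and the second gave -1.44 and -0.62. Where these probes lie relative to the deleted exons is not given in the sources used here, so they cannot check the label. Scaling to spike-in controls, which shifts every difference by -1.09, turns both lower. The Notch target genes *Dtx1* and *Heyl*, chosen after their values were seen, were lower on the array labelled RFF4, with differences of -3.63 and -3.80. Directions below are given for the array as labelled.

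T cell markers marked the sorted cells on both arrays, with *Cd3e* at 8.10 and 8.44 and *Cd8a* at 6.24 and 6.18. All 11 T cell markers were well above background, 7 higher and 4 lower, with a median difference of 0.29. *Cd2* differed most, at 2.96 and 5.18 (4.66-fold higher). *Cd8b1*, excluded by the sort, was well above background on the Control array alone, while *Cd4*, also excluded, gave 1.67 and 1.80. Markers of other gut cells were present too and stood higher on the array labelled RFF4. This held for 15 of 15 epithelial markers, 7 of 7 measured goblet and Paneth cell markers and 12 of 12 macrophage and dendritic cell markers with a difference, 2 of them (*C1qa* and *C1qc*) bounds that passed only through the array labelled RFF4, with median differences of 1.51, 1.69 and 2.40. The log2 of their summed signal went from 7.71 to 9.31, from 6.84 to 8.60 and from 5.93 to 7.29. The plasma cell genes *Jchain* and *Mzb1* were higher as well, at 3.90 and 5.58 and at -1.87 and 0.28. In the B and plasma cell list that holds them, 3 genes were higher and 1 lower. Of 5 γδ T cell markers, *Sox13* gave -1.28 and -0.50, *Blk* and *Cd163l1* were above background on neither array, and 2 had no resolved probe. In such bulk RNA, fewer cells of a type and less RNA per cell cannot be told apart.

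The promoters of *Gcnt2* are shown because this gene stood out by carrying a pair of probes with opposite differences, described below. *Gcnt2* encodes the I-branching enzyme, and its transcripts start at alternative first exons. RefSeq places start sites of *Gcnt2* on the plus strand of chromosome 13 of GRCm38.p6, in the windows chr13:40859518-40859817, chr13:40886508-40886807 and chr13:40917384-40917683, each from 250 bases before to 50 bases after the start. Capitals mark GTGGGAA, letters bound by RBPJ, searched on both strands.
Gcnt2 start site upstream: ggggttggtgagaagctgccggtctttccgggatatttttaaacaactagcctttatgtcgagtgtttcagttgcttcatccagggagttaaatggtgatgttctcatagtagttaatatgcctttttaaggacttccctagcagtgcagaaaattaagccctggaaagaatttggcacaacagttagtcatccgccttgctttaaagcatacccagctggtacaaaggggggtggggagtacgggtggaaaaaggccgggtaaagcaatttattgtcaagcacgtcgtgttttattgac
Gcnt2 start site middle: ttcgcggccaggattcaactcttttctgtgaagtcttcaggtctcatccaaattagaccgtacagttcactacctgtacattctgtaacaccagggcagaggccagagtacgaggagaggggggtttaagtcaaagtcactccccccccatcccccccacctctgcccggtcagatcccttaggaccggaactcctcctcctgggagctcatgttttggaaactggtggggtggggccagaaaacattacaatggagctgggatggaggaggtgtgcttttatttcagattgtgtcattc
Gcnt2 start site downstream: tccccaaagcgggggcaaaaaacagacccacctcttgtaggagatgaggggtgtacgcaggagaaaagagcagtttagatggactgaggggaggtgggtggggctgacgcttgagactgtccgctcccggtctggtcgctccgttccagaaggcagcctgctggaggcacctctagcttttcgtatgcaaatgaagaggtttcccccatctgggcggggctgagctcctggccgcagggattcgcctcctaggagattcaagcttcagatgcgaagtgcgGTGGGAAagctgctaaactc
The letters occurred once, 30 bases after the start site of the downstream window. The 3 windows of *Gcnt1* on the minus strand of chromosome 19 (chr19:17372795-17373094, chr19:17356618-17356917 and chr19:17339456-17339755) held no match. Over the table, 2097 of 32851 promoter windows of this length (6.38%) held GTGGGAA, as did 4 of the 85 windows listed for 59 members (4.71%) and 0 of the 11 listed for 7 of the members more than 2-fold higher. The shorter letters TGGGAA, which lie within GTGGGAA, were in 25.6% of all windows and 21.2% of member windows. A match describes letters only, and the tables used here do not pair a start site with a transcript, so neither *Gcnt2* probe could be assigned to a window.

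*Gcnt1* and *Gcnt2* were the only members more than 2-fold lower on the array labelled RFF4, and both were more than 4-fold lower. *Gcnt1*, the enzyme that opens core 2 branches on the O-glycans of leukocytes, gave 3.01 on the Control array and 0.68 on the array labelled RFF4, a difference of -2.33 (5.04-fold lower). Its second probe gave 2.05 and -0.02, a difference of -2.07. Both *Gcnt1* probes thus read low on the same array and their differences lay 0.26 apart. The *Gcnt2* probe for transcript NM_133219 gave 3.30 and 0.51, a difference of -2.79 (6.93-fold lower). Counted from the largest decrease, *Gcnt2* ranked 15 and *Gcnt1* ranked 34 among the 12955 genes that both arrays measured above background.

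The second *Gcnt2* probe, for transcript NM_008105, ran the other way. It gave -4.61 on the Control array and -2.55 on the array labelled RFF4, a difference of 2.06 (4.17-fold higher). The gap between the differences of both probes was 4.85. The lowest level called well above background was -5.51 on the Control array and -4.29 on the other, so this probe lay nearer to that limit on the Control array. Among 3707 named genes with several probes above background on at least 1 array, 13 had probes that differed by more than 2-fold in opposite directions, and *Gcnt2* was the only one with opposite differences of more than 4-fold. The difference of NM_008105 stayed past 2-fold but not 4-fold under cyclic loess (1.996), quantile normalization (1.92), median scaling (1.89) and normexp background correction (1.21), and was under 2-fold with spike-in scaling (0.97). Because the probe with the highest mean signal stands for a gene, *Gcnt2* is counted among the lower members through NM_133219. The mean of both probes differed by -0.37.

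*Gcnt3*, the mucin-type branching enzyme of epithelial cells, was higher, at -2.81 on the Control array and -0.99 on the other, a difference of 1.82 (3.53-fold). *Gcnt4* and *Gcnt7* were not well above background on either array. Of the 3 measured branching genes of this class, those counted lower were thus the leukocyte core 2 enzyme and the I-branching enzyme, and the one counted higher was the mucin-type enzyme. The class median of -2.33, or -2.32 relative to the median over all genes, rests on these 3 genes. Relative to all genes it was -0.34 with the mean of all probes, which averages the opposite *Gcnt2* probes, and 0.93 without a filter or bound.

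**Figure D1:**
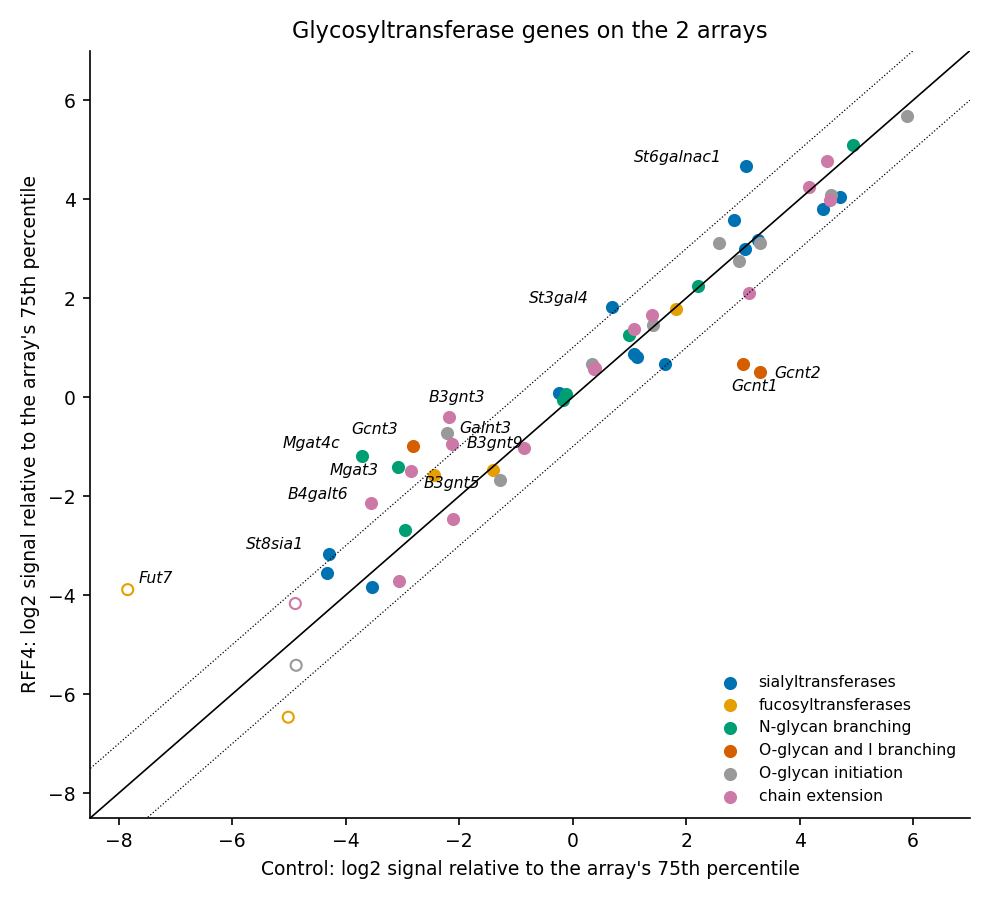
Log2 signal of each glycosyltransferase gene well above background on at least 1 array, Control on the x axis and RFF4 on the y axis, both relative to the array's 75th percentile. Points are single genes by their brightest probe, colored by class, open where only 1 array was well above background; the solid line marks equal levels and the dotted lines 2-fold. *Gcnt1* and *Gcnt2* lie below the lower dotted line, and the labelled genes above the upper line lie mostly at low signal.

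N-glycan branching genes pointed the other way from *Gcnt1* and *Gcnt2*, with 8 of 8 measured genes higher on the array labelled RFF4 and a median difference of 0.22, but this depended on the scaling. Only 5 of 8 were higher when arrays were scaled to their medians, 6 of 8 with normexp background correction and 2 of 8 with spike-in scaling. Most of these differences were small. *Mgat1*, which opens the first antenna and is needed for all complex N-glycans, gave 4.94 and 5.09, a difference of 0.15, about as large as the technical SD. *Mgat2*, which opens the second antenna, gave 2.21 and 2.25. *Mgat5*, whose branch carries galectin ligands on T cells, gave -2.96 and -2.68. The difference of *Mgat5*, 0.28, was within the technical SD of probes this dim. *Mgat4a*, *Mgat4b* and *Mgat5b* differed by 0.27, 0.12 and 0.18.

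*Mgat3* and *Mgat4c* were more than 2-fold higher. *Mgat3*, which adds the bisecting sugar that blocks further branching, gave -3.08 and -1.41, a difference of 1.67 (3.17-fold). *Mgat4c*, a homolog of the antenna-forming *Mgat4a* and *Mgat4b*, gave -3.72 and -1.19, a difference of 2.53 (5.78-fold). It was the only member counted as more than 4-fold higher, and its second probe also gave a difference of 2.09. The 4-fold call was lost with normexp background correction, at 1.66, and with spike-in scaling, at 1.44. *Mgat4d*, *Mgat4e* and *Mgat4f* were not well above background on either array.

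Sialyltransferases were split, with 6 of 14 measured genes higher, 8 lower and a median of -0.07. Those acting on O-glycans went in both directions. *St6galnac1*, which makes the sialyl-Tn antigen of mucins, gave 3.06 on the Control array and 4.66 on the array labelled RFF4, a difference of 1.60 (3.04-fold). Its second probe, at -5.00 and -4.42, was well above background on the Control array alone, and its bound was under 1-fold. *St6galnac2*, a related O-glycan enzyme, gave 4.41 and 3.81 over 10 spots on each array, a difference of -0.60 with spot SDs of 0.039 and 0.033. *St3gal1*, which caps the simplest O-glycan chains of T cells, gave 3.27 and 3.18, and its probes differed in sign by small amounts (-0.09 and 0.33).

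*St3gal4* and *St3gal6*, which cap lactosamine chains in selectin ligands, were both higher. *St3gal4* gave 0.70 and 1.82, a difference of 1.13 (2.19-fold), and *St3gal6* gave 2.85 and 3.57, a difference of 0.72. The 2-fold call of *St3gal4* ended under median scaling (0.95), normexp (0.96) and spike-in scaling (0.034). Among enzymes of sialylated glycolipids the directions differed. *St3gal5*, the synthase of ganglioside GM3, gave 1.62 and 0.68, a difference of -0.95 that fell just short of 2-fold. *St8sia1*, which turns GM3 into GD3, gave -4.29 and -3.16, a difference of 1.13 (2.18-fold) at low signal. Its 2-fold call ended under these settings too, at 0.95, 0.91 and 0.032, and with quantile normalization at 0.99. *St8sia4*, a polysialyltransferase, gave 4.72 and 4.04, a difference of -0.68, and *St6gal1*, which makes ligands of the B cell receptor CD22, gave -4.34 and -3.54.

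Fucosyltransferases were little detected, with 3 of 9 genes well above background on both arrays. *Fut7*, which completes sialyl Lewis x on leukocytes, was not well above background on the Control array (-7.84) and was on the array labelled RFF4 (-3.89), so it was at least 3.07-fold higher. Its other probe was above background on neither array. *Fut4*, which acts on related chains, gave -2.44 and -1.58, a difference of 0.86. *Fut8*, the enzyme of core fucose on N-glycans, gave 1.82 and 1.77, a difference within the technical SD. *Fut10* was above background on the Control array alone, where the bound gave no fold, and the blood group enzymes *Fut1* and *Fut2* were above background on neither.

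O-glycan initiation was close to level, with 4 of 9 measured *Galnt* genes higher, 5 lower and a median of -0.18. *Galnt6* gave 5.89 and 5.68 and *Galnt2* gave 4.55 and 4.09, so these initiating enzymes read slightly lower on the array labelled RFF4. *Galnt3*, an initiator of mucin O-glycans in epithelia, was the only one past 2-fold, with -2.22 and -0.73, a difference of 1.49 (2.82-fold). The remaining 6 measured *Galnt* genes differed by between -0.40 and 0.54. *Galnt14* was above background on the Control array alone without a fold, and the other 7 were above background on neither.

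Chain extension genes gave a median of 0.21 over 15 measured genes, 10 higher and 5 lower. The *B3gnt* enzymes, which add the N-acetylglucosamine of lactosamine repeats, accounted for most of those past 2-fold. *B3gnt3*, which extends simple O-glycans, gave -2.17 and -0.39, a difference of 1.78 (3.44-fold). *B3gnt5*, the synthase of lacto-series glycolipids, gave -2.84 and -1.49, a difference of 1.35, and *B3gnt9* gave -2.13 and -0.95, a difference of 1.18. The call of *B3gnt9* ended with normexp (0.97) and spike-in scaling (0.089). *B3gnt2*, a main enzyme of polylactosamine, differed by only 0.25. The galactosyltransferases *B4galt1*, *B4galt3* and *B4galt5*, which complete lactosamine or lactosylceramide, differed by 0.30, -0.56 and 0.08. *B4galt6*, a lactosylceramide synthase, gave -3.55 and -2.14, a difference of 1.41 (2.66-fold) with 1.11 at its second probe. *B3galt5*, which builds type 1 chains, gave 3.10 and 2.10, a difference of -0.997 that lay on the inner side of the 2-fold line.

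**Figure D2:**
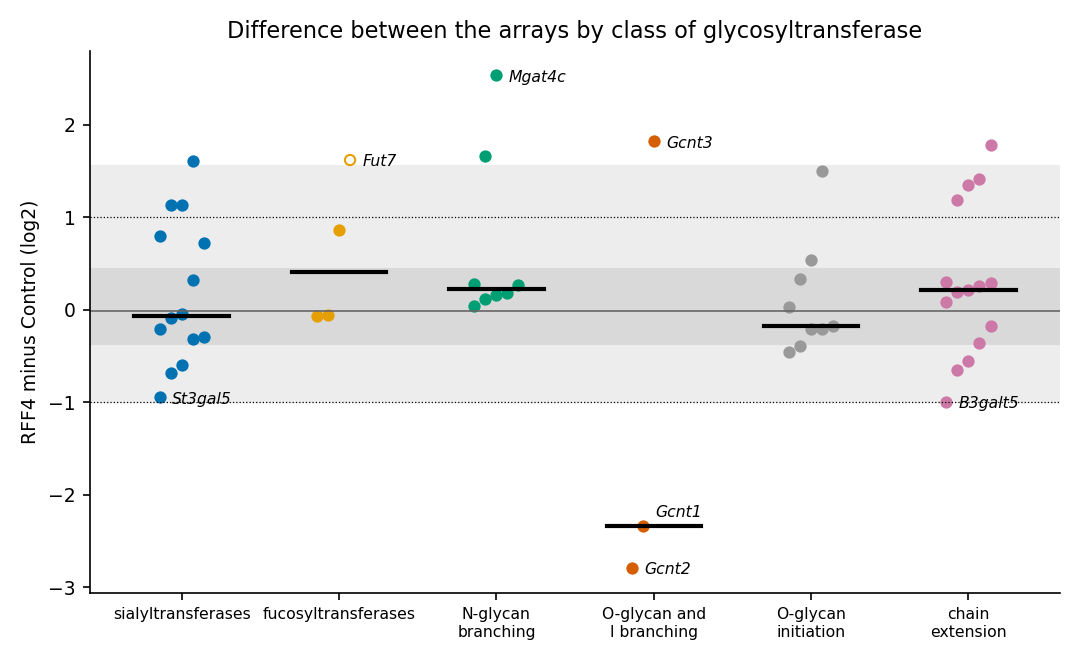
Difference between the arrays (RFF4 minus Control, log2, y axis) of each measured gene by class. Points are genes, open for the bound of *Fut7*, black bars are class medians, dotted lines mark 2-fold, and the dark and light bands hold the middle 50% and 90% of 13513 named genes around their median of -0.01. Only *Gcnt1* and *Gcnt2* lie below the lower dotted line, and class medians other than that of the *Gcnt* genes lie between -0.18 and 0.40.

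Across all classes, 53 of 81 members gave a difference, 52 measured above background on each array and *Fut7* as a bound. *Fut7* passed only through the array on which it is high and so had to differ. Another 3 were above background on the Control array alone with a bound under 1-fold (*Fut10*, *Galnt14* and *B3gnt8*), and 25 were above background on neither. Of the 53, 31 were higher and 22 lower, with a median of 0.15 against -0.01 over the 13513 named genes treated alike. More than 2-fold lower were 2 members (3.77%), beside 5.05% of all named genes, and both were more than 4-fold lower, beside 0.585%. More than 2-fold higher were 12 members (22.6%), beside 12.3% of all named genes, and 1 was more than 4-fold higher, beside 1.85%. At 2-fold the lower share was below the background and the higher share above it, while at 4-fold the lower share, of 2 genes, was above it and the higher share, of 1 gene (1.89%), level with it. Without *Fut7*, 11 of the 52 members measured on each array were more than 2-fold higher, beside 11.7% of genes measured so.

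Signal level moved with the higher members. Of 22 members with a mean level below 0, 10 were more than 2-fold higher (45.5%), beside 21.0% of all named genes in that range. The 10 include the bound of *Fut7*, which passed only through the array on which it is high. In this range 0 members were more than 2-fold lower, and that share was not computed over all genes there. Of 31 members at 0 or above, 2 were more than 2-fold higher (6.45%), beside 6.58% of all named genes there. These were *St3gal4* and *St6galnac1*, and the lower pair *Gcnt1* and *Gcnt2* also lay in this range. Medians were 0.83 for the dim members and -0.05 for the bright ones, against 0.12 and -0.06 over all genes. The part of dim signal in these differences was not tested.

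The counts depended on the scaling between the arrays. With each array scaled to its median, 10 of 53 members were more than 2-fold higher and 4 lower, the latter including *B3galt5* and *St3gal5*, beside 9.68% and 7.98% of all named genes. With normexp background correction the counts were 9 and 4 of 53, beside 9.22% and 3.67%. Scaling to 8 spike-in controls, which moved the median of all genes from -0.01 to -1.07, gave 1 of 56 members higher, *Mgat4c*, and 25 lower. Under it 54.9% of all named genes were more than 2-fold lower, so the members moved with the rest. *Gcnt1* was more than 2-fold lower and *Mgat4c* more than 2-fold higher under each of the alternatives tried.

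**Figure D3:**
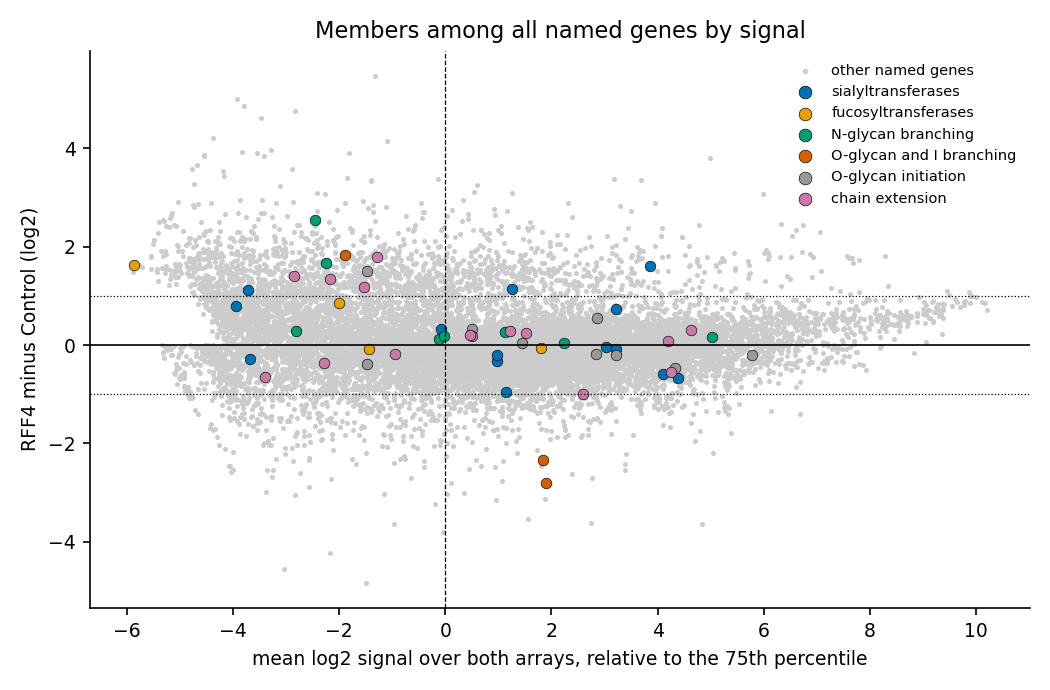
Difference between the arrays (RFF4 minus Control, log2, y axis) against the mean log2 signal over both arrays relative to the 75th percentile (x axis). Grey points are other named genes and colored points members, dotted lines mark 2-fold, and the dashed line marks a mean level of 0. Left of the dashed line 10 of 22 members lie above the upper dotted line, the bound of *Fut7* among them, and right of it 2 of 31.

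Probes of the same gene mostly moved together among the members. Of 15 members with several probes above background on at least 1 array, 2 had differences more than 1 apart, *Gcnt2* with 4.85 and *St6galnac1* with 1.02, where the plain difference of 0.59 was taken for the probe above background on 1 array only. Over all named genes the number was 359 of 3707. *St3gal1* and *St6galnac4* also had probes of opposite sign, all within 2-fold.

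**Figure D4:**
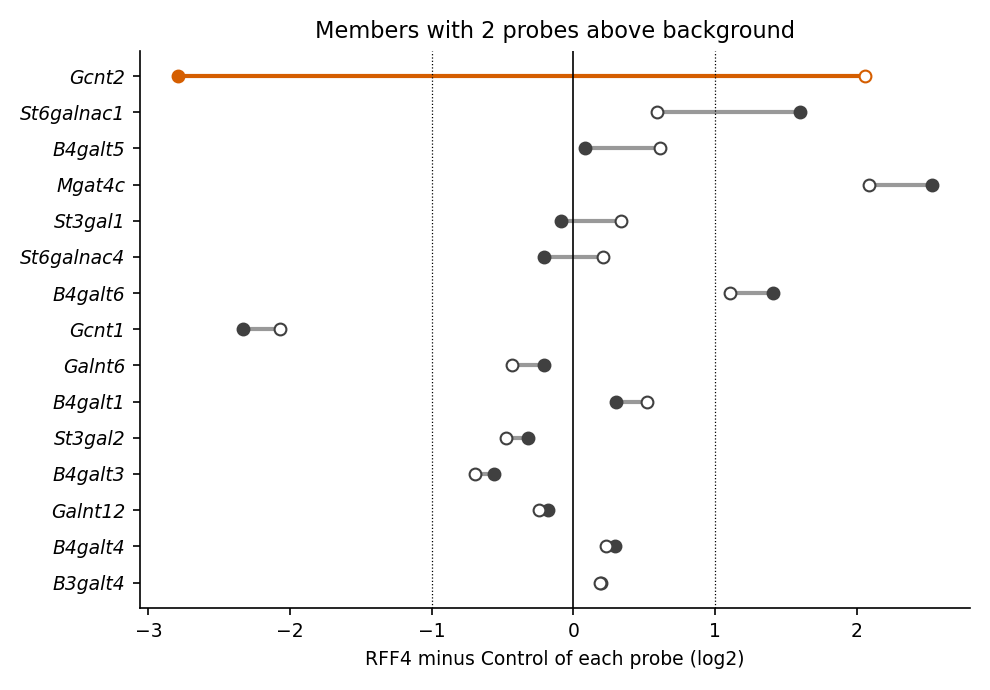
Difference of each probe (RFF4 minus Control, log2, x axis) for the 15 members with 2 probes above background on at least 1 array, 1 line per gene. Filled points are the probe with the higher mean signal and open points the other, and dotted lines mark 2-fold. The *Gcnt2* probes lie at -2.79 and 2.06 on either side of 0, while the *Gcnt1* and *Mgat4c* probes each lie on the same side.

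Members known for mucin and blood group glycans of gut epithelium were set beside the epithelial markers. Of these 11 genes, 8 gave a difference, with a median of 0.91, and 4 were more than 2-fold higher (*Gcnt3*, *St6galnac1*, *B3gnt3* and *Galnt3*), beside 12.3% of all named genes. The log2 of their summed signal went from 4.74 to 5.32, while that of the 15 epithelial markers went from 7.71 to 9.31. The 45 members outside this list with a difference, the bound of *Fut7* among them, had a median of 0.12, with 8 more than 2-fold higher and 2 lower, beside 12.3% and 5.05% of all named genes. The part of epithelial RNA in these differences was not tested. *B3galt5*, also on the list, was lower, with a difference of -0.997.

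Members known for selectin, galectin and CD22 ligands in lymphocytes had a median of 0.51 over 10 genes, the bound of *Fut7* included. Without *Fut7* the median of the 9 measured genes was that of *B4galt1*, 0.30. Of these, 8 were higher, with *St3gal4* and the bound of *Fut7* past 2-fold, and 2 lower, with *Gcnt1* past 2-fold, beside the same 12.3% and 5.05%. Related genes, a list of other glycosyltransferases and of genes of sugar nucleotide supply, Golgi transport and trimming, differed little, with a median of 0.10 over 42 genes, 25 higher and 17 lower. *Gmds*, the first enzyme of GDP-fucose synthesis, was the only one more than 2-fold higher (2.87 and 4.14). *Man1c1*, a Golgi mannosidase, was the only one more than 2-fold lower (-1.03 and -2.04). Shares over all named genes were again 12.3% and 5.05%. The difference of *Man1c1*, -1.006, lay at the 2-fold line, and another gene of the list lay just inside it at -0.996. The fringe genes, whose products add sugars to O-fucose on Notch receptors, differed by 0.46 (*Lfng*), 0.03 (*Mfng*) and -0.22 (*Rfng*).

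**Figure D5:**
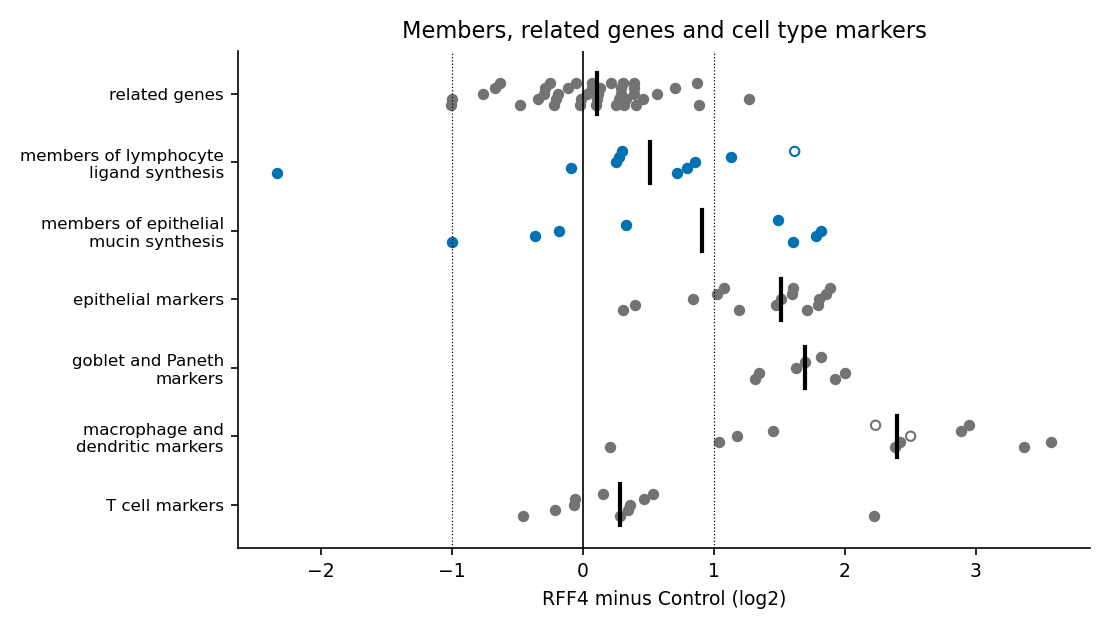
Difference between the arrays (RFF4 minus Control, log2, x axis) of each measured gene in the lists of related genes, members and cell type markers (y axis). Points are genes, blue for members and open for bounds, black bars are medians and dotted lines mark 2-fold. Epithelial, goblet and Paneth, and macrophage and dendritic markers all lie above 0, with medians of 1.51, 1.69 and 2.40, whereas related genes and T cell markers center near 0.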

How the data were processed

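Per the file headers, the authors' Agilent Feature Extraction 10.7.1.1 made the deposited spot intensity values by subtracting background on a linear scale, without normalization between arrays. The authors also deposited a table of log2 values, centered per probe, whose difference equals the log2 ratio of scanner signals plus a constant of 1.16 for 55280 probes compared. Its normalization settings are not given in the sources used here. It was used as an alternative, and 6231 of its 62976 lines hold no value. Control and outlier spots were left out, log2 signals were reduced by each array's 75th percentile over gene spots (8.99 for Control and 7.82 for RFF4), and spots of a probe were averaged. The scanner software marks spots well above background, and a probe counted as such when 50% or more of its spots carried the mark. Where it did so on 1 array alone, the difference is a bound that takes, on the dim array, the probe's own signal or the lowest marked signal, whichever was higher, and no fold is given where this is under 1-fold. Probes were named through RefSeq accessions of GRCm38.p6 (27509 of 55679 matched), and the brightest probe stands for a gene. No coordinate from the files was used. *St6gal2* had no resolved probe and was not analysed here.

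Members were taken by symbol, and members and lists were chosen with earlier results of these data known. By rule every member may be named, with values for those past 2-fold, probes more than 1 apart and the brightest of each class, and of other genes related genes past 2-fold, fringe genes, *Rbpj* and defining markers. Outside this rule, levels of some further members, such as *Mgat2*, *Mgat5*, *St3gal5*, *St3gal6*, *Fut4* and *Galnt2*, and the differences of *Dtx1* and *Heyl* were given after their values were seen. Counts past 2-fold and 4-fold are descriptions, since each group has 1 array. Alternatives, 13 of them, were tried for scaling, background correction, filter and probe choice. The 75th percentile over averaged probes was added after seeing the data, because *B3galt5* lay at the 2-fold line. In simulated data for 2 arrays with 13177 genes, 198 of 200 changed genes were recovered past 2-fold and 0 unchanged genes were called. The simulation holds technical error only and says nothing of spread between animals or pools. Its technical SD was the same at every signal level, while the SD from repeated spots rose to 0.30 below -2. Its counts therefore do not carry over to dim probes. Tools were Python 3.11.15, numpy 2.4.6, pandas 2.3.3, matplotlib 3.10.9, R 4.3.3 and limma 3.58.1. The list of B and plasma cell markers and the list of CD4 and CD8αβ T cell markers are each reported only in part.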

Additional observations from a re-analysis of the deposited data

How the results depend on the processing

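No paired analysis was possible because each genotype has 1 array, and no array could be left out. No member counted past 2-fold changed direction under the alternatives that give 1 difference per gene. Counted per probe, *Gcnt2* was past 2-fold both ways. Scaling to the array median gave 1.89 for the *Gcnt2* probe NM_008105, -2.97 for NM_133219 and a member median of -0.0208. With it 4 of 53 members were more than 2-fold lower, beside 7.98% of all named genes. Scaling to spike-in controls gave 0.97 and -3.89 for these probes, a member median of -0.91, 25 members lower, 1 higher, and 0.70 for the fucosyltransferase median relative to all genes. These scalings moved the median of all genes from -0.01 to -0.18 and -1.07. Normexp gave 1.21 for NM_008105, a gap of 3.93 between the *Gcnt2* probes and 4 members more than 2-fold lower, beside 3.67% of all named genes. The gap was 4.71 under cyclic loess and 4.70 under quantile normalization. With the mean of all probes, 1 of 55 members was more than 2-fold lower and 13 higher, beside 5.75% and 12.1% of all named genes. The *Gcnt* and fucosyltransferase medians relative to all genes were then -0.34 and -0.0283. Counting per probe gave -2.04 for the *Gcnt* genes. The fucosyltransferase median was -0.0324 with plain ratios and -0.0498 for genes above background on both arrays, where *Fut7* drops out.

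Without a filter or bound, which lets in genes below background, 34 of 81 members were more than 2-fold higher, beside 30.0% of all named genes. The member median was 0.33, against 0.25 over all genes. Class medians relative to all genes were 0.0242 (N-glycan branching), 0.0197 (chain extension), 0.93 (*Gcnt*), 0.29 (*Galnt*), 0.61 (fucosyltransferases) and 0.47 (sialyltransferases). The medians of the *Gcnt*, *Galnt* and sialyltransferase genes thus changed sign there, by construction with more genes included. *St3gal4*, *St8sia1* and *B3gnt9* fell under 2-fold under some scalings or background corrections, at 0.95, 0.91 and 0.97. They came to 0.034, 0.032 and 0.089 with spike-in scaling, where their difference was lost. *B3galt5* passed 2-fold lower at -1.17 under median scaling, -1.04 with normexp and -2.09 with spike-in scaling. It also passed at -1.01 both in the authors' table and with the percentile over averaged probes. Each of these last settings gave 3 of 53 members more than 2-fold lower, beside 5.21% of all named genes. Precision is limited by 1 array per genotype and, for dim probes, by signal near background.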
